A study of Mus musculus with 81 samples.

Results

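The 8 genes Tmem51, Coro2a, St8sia6, Igfbp5, Notch4, Tnfsf8, Synpo and Trpc4 were chosen by how far their RNA level in microglia of Egr2KO mice lay from that in Cre control mice, out of 25124 genes counted. They were found by symbol in the 6 tables of raw counts, and each table held all 8. Microglia, the resident macrophages of the brain, were sorted from adult male C57BL/6 mice, and 81 polyadenylated RNA libraries in 28 groups were sequenced, each from the pooled brains of several mice. Cre mice carried Cx3cr1CreERT2/WT, a tamoxifen-inducible Cre recombinase knocked into the Cx3cr1 gene, which is active in microglia and other macrophages. Egr2KO mice were Cx3cr1CreERT2/WT::Egr2fl/fl and Mef2aKO mice Cx3cr1CreERT2/WT::Mef2afl/fl, so both knockouts and their Cre controls share the driver allele. WT and Trem2KO mice are labelled by those names alone. Baseline mice ate a regular diet, and the others ate 0.2% cuprizone, a toxin that binds copper and causes oligodendrocyte death and demyelination, for 4 weeks (WT, Trem2KO), 5 weeks (Cre, Mef2aKO, Egr2KO) or 6 weeks (Cre, Egr2KO). Baseline cells, apart from Mef2aKO sets split by CD229, and the 5-week Egr2KO experiment were sorted as 1 population, low in CD44, CD45 and CD11b per the labels. Other cells were split by antibodies to CD229 (the Ly9 product), to CD11c (the Itgax product) and, in the 5-week Mef2aKO experiment, to Clec7a, a lectin receptor of activated microglia. Gates named CD229neg or CD229pos here are CD11c-negative unless CD11cpos is written. Groups held 3 libraries, except 4 in each Trem2KO 4-week gate and 2 in Egr2KO baseline, both whole-population groups at 5 weeks, Mef2aKO Clec7aneg and Mef2aKO baseline CD229pos. All brains were handled in a buffer with Flavoperidol (flavopiridol), which blocks transcription, and sodium butyrate.

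EGR2 is a zinc-finger transcription factor of the immediate early family; it binds GC-rich sites, and the corepressors NAB1 and NAB2, themselves encoded by EGR targets, dampen its activity. It is best known for switching on myelin genes in Schwann cells, and it is also expressed by macrophages and lymphocytes. The 8 genes have unlike roles. Notch4 encodes a NOTCH receptor, which is cut on ligand binding to release a transcriptional activator, and Tnfsf8 encodes CD30 ligand, a membrane-bound cytokine of the TNF family. Igfbp5 encodes a secreted protein that binds insulin-like growth factors and extracellular matrix. Tmem51 encodes a multipass membrane protein of little-known function, and Trpc4 a calcium-permeable cation channel of the plasma membrane. Synpo encodes synaptopodin, an actin-associated protein of dendritic spines and kidney podocytes, and Coro2a a coronin, a WD-repeat protein that binds actin and nuclear receptor corepressor complexes. St8sia6 encodes a sialyltransferase that adds alpha-2,8-linked sialic acid to glycans, which are ligands of Siglec receptors.

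Library totals ran from 4387075 to 13884739 counts in the 6-week experiment and from 5824888 to 10091845 in the 5-week whole-population experiment. The microglial markers (12 genes, among them P2ry12, Tmem119 and Sall1) summed to 7455 to 18504 CPM (counts scaled to a common library size with TMM, a correction for composition) across the 6-week experiment. At baseline Egr2 itself stood at 3.41 ± 1.09 CPM in Cre cells (SD, n = 3) against 3.52 ± 1.15 CPM with the knockout label (SD, n = 2), so its level does not bear that label out, and these 2 are called the libraries labelled Egr2KO. After cuprizone the Egr2 difference, as log2 fold change ± SE, was -0.88 ± 0.25 in CD229neg, -0.62 ± 0.20 in CD229pos and -0.43 ± 0.18 in CD229pos CD11cpos cells, none of them past the threshold (adjusted p = 0.286, 0.103 and 0.487, edgeR's quasi-likelihood test), and the CD229pos libraries overlapped. In the whole population at 5 weeks it was -1.61 ± 0.14 (adjusted p = 3.94e-05). Reads outside a floxed part are still counted, so these values check the deletion only in part. Titles of 17 libraries carry the tag PE150: both baseline libraries labelled Egr2KO but no Cre baseline library, and replicates 2 and 3 of every 6-week gate in both genotypes. At baseline, genotype label and tag therefore cannot be told apart.

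The windows upstream of the start sites are shown for 5 of the genes, because the set contains genes both lower and higher in Egr2KO cells and EGR proteins bind GC-rich DNA. They are the 250 bases before the RefSeq start, 5′ to 3′ on the gene's own strand, from RefSeq on GRCm38.p6; 7 of the 8 genes are shown or described, and Synpo is named only. Coro2a (chr4:46601930-46602179, minus strand) and St8sia6 (chr2:13793521-13793770, minus strand) were lower in Egr2KO cells, while Igfbp5 (chr1:72874866-72875115, minus strand) and Notch4 (chr17:34564045-34564294, plus strand) were higher after cuprizone. Trpc4 (chr3:54155807-54156056, plus strand) is shown because its window alone holds a motif searched, in capitals.
Coro2a: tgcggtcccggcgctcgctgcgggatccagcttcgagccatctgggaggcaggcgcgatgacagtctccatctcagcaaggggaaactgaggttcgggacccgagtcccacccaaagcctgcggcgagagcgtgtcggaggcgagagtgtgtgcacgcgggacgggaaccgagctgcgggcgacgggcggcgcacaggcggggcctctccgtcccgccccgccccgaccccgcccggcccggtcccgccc
St8sia6: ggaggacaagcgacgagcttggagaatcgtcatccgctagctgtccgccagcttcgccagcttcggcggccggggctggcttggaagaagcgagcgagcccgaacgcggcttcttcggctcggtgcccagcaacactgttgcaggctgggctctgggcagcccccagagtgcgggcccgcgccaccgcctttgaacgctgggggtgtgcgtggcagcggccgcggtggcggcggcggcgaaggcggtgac
Igfbp5: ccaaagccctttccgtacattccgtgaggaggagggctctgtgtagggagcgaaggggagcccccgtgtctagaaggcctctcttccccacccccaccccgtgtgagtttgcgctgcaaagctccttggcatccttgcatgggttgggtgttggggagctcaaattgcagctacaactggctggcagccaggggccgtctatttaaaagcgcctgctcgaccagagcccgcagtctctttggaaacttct
Notch4: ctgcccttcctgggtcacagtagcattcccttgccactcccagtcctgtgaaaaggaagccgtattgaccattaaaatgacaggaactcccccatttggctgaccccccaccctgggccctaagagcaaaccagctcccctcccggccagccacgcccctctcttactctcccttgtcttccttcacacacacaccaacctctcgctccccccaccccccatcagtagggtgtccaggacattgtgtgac
Trpc4: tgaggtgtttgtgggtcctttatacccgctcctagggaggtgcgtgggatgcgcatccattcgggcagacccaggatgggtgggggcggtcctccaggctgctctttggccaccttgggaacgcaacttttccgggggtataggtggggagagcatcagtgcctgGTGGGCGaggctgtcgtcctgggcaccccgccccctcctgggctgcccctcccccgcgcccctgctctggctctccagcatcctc

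The EGR motif GCGNGGGCG, searched on both strands, was in none of the 7 windows and in 4.7% of the 32851 windows of this length. Its shorter core GTGGGCG, which some matches of the longer motif contain, was in 7.02% of all windows and, among the 7, only in that of Trpc4, 85 bases before the start and on the same strand. No match says only that these letters are not in this window. The windows of Coro2a and St8sia6 were 73.6% and 70.8% G+C with 33 and 30 CpG dinucleotides, against medians of 52.4% and 6 over all windows. The window of Notch4 held 58.4% G+C and 4 CpG, and that of Igfbp5 58.8% and 10. The windows of Tmem51 (67.6%, 13 CpG) and Trpc4 (66.4%, 12 CpG) lay between, and that of Tnfsf8 (54.4%, 8 CpG) had the lowest G+C of the 7.

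Egr2KO and Cre cells were then compared at baseline, in the 3 gates at 6 weeks and in the whole population at 5 weeks. Because these 5 contrasts chose the genes, the values are a description, with no test. Directions at baseline rest on the label, which Egr2 RNA there does not bear out. Tmem51, Igfbp5, Synpo and Notch4 were higher in Egr2KO cells in all 4 cuprizone comparisons, with no overlap of the libraries. St8sia6 was lower in all 5 comparisons, Coro2a was lower mainly at baseline and in the CD229neg and CD229pos gates, and Tnfsf8 and Trpc4 changed side between comparisons. Over all genes tested, 0.182% passed an adjusted p of 0.05 at baseline, 0.19% in CD229neg, 2.46% in CD229pos and 0.25% in CD229pos CD11cpos cells at 6 weeks, and 0.92% in the whole population at 5 weeks. The median difference over all genes was within 0.01 of 0 on the log2 scale in each. No median of the members is set beside it, because these contrasts chose them.

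Notch4, the NOTCH receptor, was at 32.1, 34.9 and 42.9 CPM in the Cre baseline libraries and at 44.7 and 45.4 CPM in those labelled Egr2KO. The latter were above all 3 controls by a small margin (log2 fold change 0.30 ± 0.18). In CD229pos cells at 6 weeks Notch4 was at 49, 84.1 and 62.9 CPM in Cre and at 135, 194 and 189 CPM in Egr2KO replicates 1 to 3. Every Egr2KO library exceeded every Cre library, and replicate 1 was the lowest of its group in both genotypes (1.40 ± 0.15). In CD229pos CD11cpos cells the levels were 41.0, 41.4 and 43.8 CPM against 89.9, 106 and 92.9 CPM (1.19 ± 0.15), again with no overlap. The difference was smaller in CD229neg cells, at 33.1, 46.7 and 46.2 CPM against 68.0, 55.0 and 58.3 CPM (0.51 ± 0.16), and within the 2 PE150 libraries of each genotype it was 0.26. In the whole population at 5 weeks the Cre libraries lay at 72.6 and 101 CPM and the Egr2KO libraries at 142 and 154 CPM (0.78 ± 0.12, or 0.55 without Cre replicate 1 and 1.03 without Cre replicate 2).

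Notch4 is also expressed by endothelium, so endothelial markers stand beside it. Their sum over 8 genes was higher in Egr2KO than in Cre libraries, without overlap, in all 5 comparisons, as Notch4 was. It ran from 96.2 to 98.5 CPM in Cre and from 103 to 114 CPM in the libraries labelled Egr2KO at baseline, from 92.3 to 94.4 against 102.9 to 107 CPM in CD229neg, from 109.9 to 207 against 220.04 to 293 CPM in CD229pos, from 249 to 305 against 312 to 345 CPM in CD229pos CD11cpos cells, and from 223 to 239 against 254 to 275 CPM at 5 weeks. In CD229pos cells most of the sum was Flt1, a VEGF receptor (111 and 225 CPM on average), the only marker of the list past the threshold in any of the 5. Cldn5 was at 0 in every library of the 5 comparisons, Tek and Ly6c1 were at 0 in every CD229pos library, and Cdh5 averaged 4.31 CPM in Cre and 3.98 CPM in Egr2KO CD229pos cells. The part of endothelial RNA in the Notch4 values was not tested.

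Tnfsf8, the CD30 ligand, differed in opposite directions by condition. At baseline it was at 6.91, 10.2 and 5.35 CPM in Cre and at 2.39 and 2.88 CPM in the libraries labelled Egr2KO (-1.50 ± 0.27), with both below every control. In CD229neg cells at 6 weeks the order was the reverse, at 6.87, 9.42 and 8.98 CPM in Cre and 12.5, 11.2 and 10.1 CPM in Egr2KO (0.40 ± 0.20). The libraries overlapped in CD229pos cells (35.9 ± 6.8 against 46.1 ± 8.67 CPM, 0.37 ± 0.15) and in CD229pos CD11cpos cells (60.1 ± 4.54 against 52.1 ± 3.47 CPM, -0.20 ± 0.14; all SD, n = 3). In the whole population at 5 weeks Egr2KO was lower, at 39.2 CPM in both libraries against 52.1 and 50.0 CPM (-0.39 ± 0.10).

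Igfbp5, the secreted binding protein, was close to undetected at baseline, with 18 reads over the 3 Cre and 4 reads over the 2 libraries labelled Egr2KO. In CD229neg cells at 6 weeks it was at 2.20, 5.55 and 6.01 CPM in Cre and at 16.2, 15.1 and 14.3 CPM in Egr2KO replicates 1 to 3 (1.64 ± 0.32). In CD229pos cells the Cre libraries were spread over 16.7, 52.2 and 29.1 CPM, while those of Egr2KO lay at 72.4, 97.9 and 102 CPM (1.47 ± 0.22; 1.17 without Cre replicate 1 and 1.95 without Cre replicate 2). The groups did not overlap in either gate. In CD229pos CD11cpos cells the levels were 41.7, 42.6 and 33.5 CPM against 89.7, 87.4 and 87.9 CPM (1.18 ± 0.22), and the knockout libraries differed little among themselves. At 5 weeks the levels were 20.7 and 20.2 CPM against 37.9 and 42.0 CPM (0.97 ± 0.12). The libraries of the genotypes were apart in both comparisons.

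Tmem51, the membrane protein, had 6 reads in the 3 Cre and 1 read in the 2 baseline libraries labelled Egr2KO, so no fold is given there. At 6 weeks it was at 0.137, 0.421 and 0.651 CPM in Cre and 4.44, 5.83 and 1.98 CPM in Egr2KO CD229neg cells (3.28 ± 0.52), a step from a total of 15 reads to 110. The CD229pos libraries lay at 3.10, 6.51 and 4.79 CPM in Cre and at 15.7, 26.5 and 19.4 CPM in Egr2KO (2.09 ± 0.31). The lowest Egr2KO library lay well above the highest Cre library in that gate. In CD229pos CD11cpos cells Tmem51 was at 6.49, 3.59 and 2.60 CPM against 16.8, 13.9 and 12.4 CPM (1.83 ± 0.32). At 5 weeks it was at 9.32 and 9.76 CPM against 21.0 and 22.4 CPM (1.19 ± 0.16), the smallest of the 4 cuprizone differences for this gene.

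Synpo, encoding synaptopodin, was a rare transcript in Cre cells in every condition: 4 reads over the 3 baseline libraries and 75 over the 3 CD229pos CD11cpos libraries. In CD229pos cells it was at 1.07, 1.30 and 2.00 CPM in Cre and at 8.44, 9.57 and 8.03 CPM in Egr2KO (2.52 ± 0.37). In CD229pos CD11cpos cells the levels were 2.47, 1.40 and 2.80 CPM against 8.52, 14.4 and 9.35 CPM (2.25 ± 0.35). At 5 weeks they were 1.16 and 2.48 CPM against 9.06 and 10.6 CPM (2.50 ± 0.33), and 3.07 or 1.98 with only the first or only the second Cre library. No libraries of the 2 genotypes overlapped in these 3 comparisons. In CD229neg cells the nearest libraries were almost level, at 1.23 CPM in Cre replicate 3 and 1.24 CPM in Egr2KO replicate 3, and the difference of 1.90 ± 0.51 became 3.72 without that Cre library.

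Trpc4, the cation channel, was nearly absent at baseline (2 reads over 3 Cre libraries, 0 over 2 labelled Egr2KO). At 6 weeks its libraries overlapped between genotypes in all 3 gates. It was at 0.275, 0.505 and 0.290 CPM in Cre and at 1.00, 2.05 and 0.247 CPM in Egr2KO CD229neg cells (1.88 ± 0.72, and 0.95 without Egr2KO replicate 2). In CD229pos cells it was at 1.43, 6.51 and 4.07 CPM against 5.63, 8.26 and 12.3 CPM (1.12 ± 0.33, and 1.59 without Cre replicate 2). The level was 28.7 ± 2.23 CPM in Cre and 30.2 ± 3.71 CPM in Egr2KO CD229pos CD11cpos cells (SD, n = 3), with a difference of 0.08 ± 0.25. In the whole population at 5 weeks Trpc4 was instead lower in Egr2KO, at 4.71 and 4.76 CPM against 7.89 and 7.45 CPM (-0.70 ± 0.24).

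Coro2a, the coronin, was the most evenly expressed of the 8. At baseline it was at 84.2, 92.8 and 77.6 CPM in Cre and at 42.9 and 44.8 CPM in the libraries labelled Egr2KO (-0.95 ± 0.10), with a wide gap between the groups. The gap narrowed along the gates: 76.8 ± 5.33 against 50.3 ± 0.360 CPM in CD229neg (-0.61 ± 0.09), 76.5 ± 3.47 against 54.2 ± 5.78 CPM in CD229pos (-0.49 ± 0.09) and 62.9 ± 1.63 against 55.3 ± 5.60 CPM in CD229pos CD11cpos cells (-0.18 ± 0.09; SD, n = 3). The libraries did not overlap in CD229neg and CD229pos cells; in the last gate Egr2KO replicate 3, at 61.5 CPM, was level with Cre replicate 2. At 5 weeks the Cre libraries were at 65.5 and 62.6 CPM and the Egr2KO libraries at 64.3 and 48.6 CPM, and the difference was -0.19 ± 0.12, or 0.0039 without Egr2KO replicate 2. Whether the narrowing itself exceeds the error was not tested, because each of its terms chose the gene.

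St8sia6, the sialyltransferase, was lower in Egr2KO cells in every comparison, without overlap. At baseline it was at 17.1, 17.2 and 17.1 CPM in Cre and at 8.58 and 9.66 CPM in the libraries labelled Egr2KO (-0.91 ± 0.24). At 6 weeks the CD229neg libraries lay at 24.3, 29.7 and 35.0 CPM against 11.9, 12.6 and 19.3 CPM (-1.11 ± 0.21), and the CD229pos libraries at 50.7, 82.8 and 81.8 CPM against 21.5, 31.7 and 42.2 CPM (-1.15 ± 0.17). In CD229pos CD11cpos cells the levels were higher in both genotypes, at 163, 161 and 146 CPM against 88.5, 87.9 and 97.4 CPM (-0.78 ± 0.16). The largest difference was in the whole population at 5 weeks, at 83.1 and 62.8 CPM against 21.2 and 18.5 CPM (-1.90 ± 0.14, with -2.08 and -1.67 when either Cre library was left out).

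**Figure D1:**
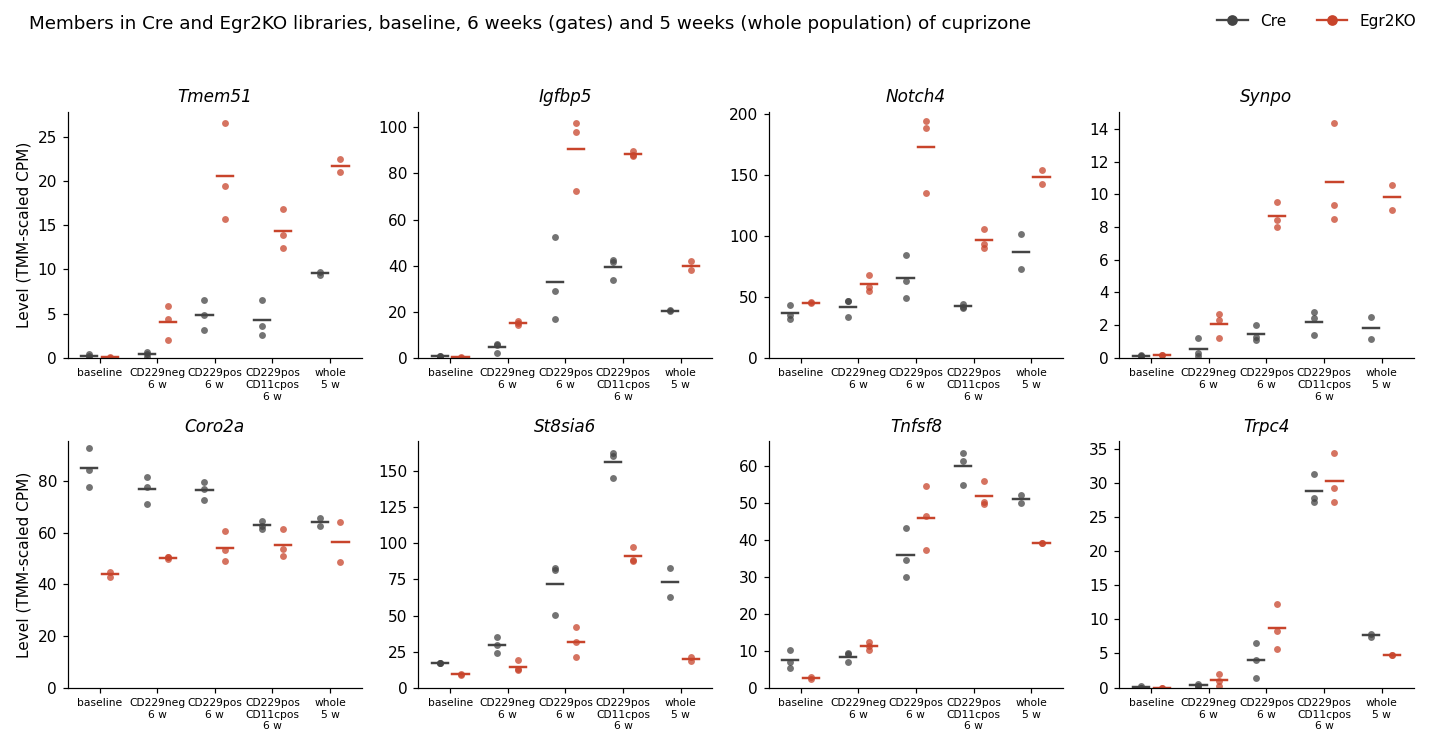
Level of each gene in TMM-scaled CPM (linear axes from 0) in every Cre and Egr2KO library at baseline, in the 3 gates at 6 weeks and in the whole population at 5 weeks of cuprizone; points are libraries and bars are group means. In the top row the Egr2KO points of Tmem51, Igfbp5, Notch4 and Synpo lie above the Cre points in cuprizone groups, St8sia6 points lie below in all 5 groups, and Trpc4 overlaps in the 3 gates.

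Among genes with a mean of at least 5 CPM over the groups compared, ordered by fold change, Synpo was the highest of 10643 in CD229pos CD11cpos cells and of 10632 in the whole population at 5 weeks, and had rank 2 of 10639 in CD229pos cells, where it was behind Slpi, a secreted protease inhibitor. Tmem51 had rank 2 in CD229pos CD11cpos, rank 3 in CD229pos cells and rank 7 at 5 weeks, and Igfbp5 had rank 2 of 10461 in CD229neg cells. Counted from the lowest, St8sia6 had rank 3 in CD229neg cells and at 5 weeks, and at baseline Tnfsf8 had rank 6, Coro2a 16 and St8sia6 19 of 10303. Coro2a was at rank 1014 from the lowest in CD229pos CD11cpos cells and at rank 900 at 5 weeks, and Tnfsf8 at rank 264 there. The set therefore mixes genes extreme in several contrasts with genes extreme in 1. These ranks describe the values that chose the genes.

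Border macrophage markers also differed between the genotypes, and their part in these values was not tested. The sum over 8 such genes (Mrc1, Cd163, Lyve1, Pf4, F13a1, Ms4a7, Cbr2, Folr2) ran from 28.95 to 167 CPM in Cre and from 19.7 to 57.5 CPM in the baseline libraries labelled Egr2KO, from 66.8 to 98.02 against 46.9 to 75.9 CPM in CD229neg, from 149 to 380.0 against 123 to 208 CPM in CD229pos and from 56.995 to 229.6 against 40.1 to 45.7 CPM in CD229pos CD11cpos cells, and from 78.4 to 80.5 against 53.1 to 57.2 CPM at 5 weeks. The groups overlapped at baseline and in the CD229neg and CD229pos gates, and did not in CD229pos CD11cpos cells and at 5 weeks. No marker of the list was at 0 in every library of a group. Neutrophil markers S100a8, S100a9, Ly6g and Retnlg were at 0 in the Cre baseline libraries. Their levels in other groups are not given here, so nothing is read on a difference between genotypes. At baseline Fosb, an immediate early gene that handling of tissue can induce, averaged 5.45 CPM in Cre and 263 CPM in the libraries labelled Egr2KO. At 6 weeks mean Fosb was instead lower in Egr2KO, at 17.5 against 43.1 CPM in CD229neg and 6.56 against 20.8 CPM in CD229pos cells. Neither of these falls passed the threshold, and the part of Fosb was not tested either. In a sorted pool, fewer cells of a type and less RNA per cell cannot be told apart.

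Other genes of the members' families were tested in the same 5 comparisons, and their counts read against the shares of all genes given above. Of 24 other NOTCH pathway genes tested at 6 weeks, 1 was higher and 1 lower in Egr2KO CD229pos cells, beside 2.46% of all genes: Jag2, a ligand, by 0.31 ± 0.08 (adjusted p = 0.0486) and Maml1, a coactivator, by -0.31 ± 0.08 (adjusted p = 0.0309; edgeR's quasi-likelihood test). None of the 24 passed in CD229neg, CD229pos CD11cpos or baseline cells, and none of 22 at 5 weeks. Of 27 other TNF family ligands and receptors, Tnf was higher in the baseline libraries labelled Egr2KO (1.43 ± 0.28, adjusted p = 0.0197) and Tnfrsf17, the receptor BCMA, lower in CD229pos cells (-1.12 ± 0.27, adjusted p = 0.0235). Among 11 other sialyltransferases, St8sia1, which makes ganglioside GD3, was higher in CD229pos cells (0.86 ± 0.20, adjusted p = 0.0217) and St8sia4, a polysialyltransferase, lower in CD229pos CD11cpos cells (-0.56 ± 0.11, adjusted p = 0.0133), and neither passed in the other gates. Of 8 other insulin-like growth factor genes tested at 5 weeks, 2 passed beside 0.92% of all genes: Igf2 (-0.91 ± 0.14, adjusted p = 0.00375) and Igf2r (-0.67 ± 0.13, adjusted p = 0.0280) were lower while Igfbp5 was higher. Of 14 other TRP channels, Trpm6 was higher in CD229pos cells (1.19 ± 0.31, adjusted p = 0.0447) and Trpm3 lower at 5 weeks (-0.98 ± 0.16, adjusted p = 0.00774). None of 8 other coronin, synaptopodin and alpha-actinin genes passed in any of the 5 comparisons. The medians of these lists ran from -0.22 to 0.14, beside medians of all genes from -0.0037 to 0.0098.

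How the 8 genes followed the gates at 6 weeks is given as the mean of the Cre and Egr2KO steps. These are the libraries that chose the genes, and Tmem51, Synpo and Trpc4 reached the floor of 5 CPM for the rankings in CD229pos or CD229pos CD11cpos groups but not in CD229neg cells, which favours a rise, so the steps are a description with no p. From CD229neg to CD229pos cells the fit called 7 of 8 genes higher, beside 19.6% of all genes tested, and nothing is read from that count. The log2 step was 3.08 ± 0.35 for Trpc4, 2.80 ± 0.29 for Tmem51, 2.66 ± 0.19 for Igfbp5 and 2.05 ± 0.12 for Tnfsf8. It was 1.64 ± 0.32 for Synpo, 1.24 ± 0.14 for St8sia6, 1.07 ± 0.11 for Notch4 and 0.05 ± 0.06 for Coro2a. From CD229pos to CD229pos CD11cpos cells it was 2.28 ± 0.21 for Trpc4, 1.30 ± 0.12 for St8sia6, 0.45 ± 0.10 for Tnfsf8 and -0.74 ± 0.11 for Notch4, the 4 of 8 called, beside 28.9% of genes. Border macrophage markers rose in the CD229 step too, 8 of 8 of them, and their part in the members' values was not tested. Gate steps in libraries that did not choose the genes follow. The floor of 5 CPM favours a rise of Tmem51, Synpo and Trpc4 in those steps too. Counts of members that rose there are therefore not read as a result about the set. Rises of Tmem51, Synpo and Trpc4 there are given with no p.

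The 5-week Cre gates, from mice with neither floxed gene, gave the steps of cuprizone, Clec7a, CD229 and CD11c 1 at a time. The step from baseline to Clec7aneg cells mixes diet and gate, and its 3 Cre baseline libraries took part in choosing the genes, so it is a description with no p: the fit called 5 of 8 higher, beside 15.5% of genes. Tmem51 went from 0.190, 0.376 and 0 CPM to 2.14, 3.25 and 3.95 CPM (3.94 ± 0.49), and Igfbp5 from 0.759, 0.658 and 0.292 CPM to 5.79, 6.29 and 5.46 CPM (3.32 ± 0.39). Every cuprizone library exceeded every baseline library for both. The log2 step was 1.01 ± 0.23 for Tnfsf8, 0.84 ± 0.14 for Notch4 and 0.40 ± 0.15 for St8sia6, whose call was lost when any of 5 of the 6 libraries was left out, all but Clec7aneg replicate 2. Synpo was at 0.128 and 0.551 CPM and Trpc4 at 0.0632 and 0.357 CPM, before and after.

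From Clec7aneg to Clec7apos cells all 8 passed, against 37.9% of genes (edgeR's quasi-likelihood test with Benjamini-Hochberg adjustment, as for all tests here). Nothing is read from that count, since the floor for the rankings favours a rise of Tmem51, Synpo and Trpc4 here as well. The steps of Tmem51, Synpo and Trpc4 are therefore a description with no p. Trpc4 went from 0.356, 0.629 and 0.0840 CPM to 6.52, 4.21 and 5.22 CPM (3.94 ± 0.46), the first gate in which its reads were common. Igfbp5 (1.98 ± 0.22), Tmem51 (1.74 ± 0.24), Tnfsf8 (1.45 ± 0.19), Synpo (1.40 ± 0.53), St8sia6 (1.32 ± 0.14) and Notch4 (0.84 ± 0.14) rose as well. Coro2a fell (-0.26 ± 0.09, adjusted p = 0.0162). Synpo libraries overlapped between 1.05 and 1.04 CPM. Its call was lost without Clec7aneg replicate 1 or 3 or Clec7apos replicate 1 or 2, with DESeq2 and with no filter. Coro2a missed the threshold without Clec7aneg replicate 3 (adjusted p = 0.0676) or Clec7apos replicate 2 (adjusted p = 0.0540). In this step 8 of 8 border macrophage markers rose, and their summed level was 22.1 to 32.8 CPM in Clec7aneg and 106 to 191 CPM in Clec7apos libraries; their part was not tested.

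Within Clec7apos cells, the CD229 step took Notch4 from 120.1, 111 and 111 CPM to 165, 159 and 163 CPM (0.50 ± 0.13, adjusted p = 0.0165), with no overlap. Tnfsf8 (0.59 ± 0.17, adjusted p = 0.0365) passed too, and the fit called Tmem51 (0.72 ± 0.20), so 3 of 8 rose against 2.10% of genes. These calls depended on single libraries: 0 of 8 passed without Clec7apos replicate 2 or 3 or CD229pos replicate 1, 1 of 8 without CD229pos replicate 2 or 3, and Tnfsf8 also missed the threshold without Clec7apos replicate 1 (adjusted p = 0.0977) and with DESeq2 (0.149). The CD11c step then separated the set, with 4 of 8 past the threshold against 14.1% of genes. St8sia6 went from 44.8, 45.4 and 53.2 CPM to 136, 129.7 and 144 CPM (1.51 ± 0.12, adjusted p = 7.93e-11). Trpc4 went from 6.71, 3.94 and 7.23 CPM to 23.2, 19.7 and 23.3 CPM (1.87 ± 0.26). Notch4 fell from 162 ± 2.92 to 61.1 ± 6.61 CPM (-1.41 ± 0.14, adjusted p = 3.14e-09) and Tmem51 from 17.2 ± 1.2 to 6.95 ± 2.12 CPM (-1.32 ± 0.21, adjusted p = 2.67e-05; SD, n = 3). Thus the gate with most St8sia6 and Trpc4 RNA was not the gate with most Notch4 and Tmem51 RNA.

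WT microglia at 4 weeks gave the same steps in other mice and without Clec7a. From baseline to CD229neg, 5 of 7 genes in the joined tables rose against 18.8% of genes, and from CD229neg to CD229pos again 5 of 7 against 24.6%: Tmem51, St8sia6, Igfbp5, Notch4 and Tnfsf8 in both. Nothing is read from these counts. The floor for the rankings favours a rise of Tmem51, Synpo and Trpc4 here too, and those rises are given with no p. Tmem51 was at 0, 0.176 and 0 CPM at baseline and 1.84, 2.55 and 6.71 CPM in CD229neg cells (5.62 ± 0.76). In CD229pos cells it was at 16.0, 19.3 and 14.6 CPM (2.15 ± 0.35). Tnfsf8 went from 3.54 ± 0.0740 to 18.3 ± 4.57 and 57.6 ± 5.84 CPM (SD, n = 3). In the first step St8sia6 (0.57 ± 0.16, adjusted p = 0.00879) missed the threshold without baseline replicate 3 (adjusted p = 0.0716) or CD229neg replicate 3 (adjusted p = 0.136). In the CD11c step 4 of 7 passed against 23.3% of genes. St8sia6 rose to 119.9 ± 9.36 CPM (1.95 ± 0.14, adjusted p = 1.07e-10) and Synpo to 3.26 ± 0.569 CPM (1.85 ± 0.47), while Notch4 (-1.64 ± 0.15) and Tmem51 (-1.92 ± 0.34) fell. Trpc4 was counted on different transcripts in the 2 tables of this experiment. In the WT table alone it rose in all 3 steps (4.69 ± 1.08, 1.99 ± 0.42 and 1.56 ± 0.31). Its level went from 0.0293 CPM at baseline to 13.8 ± 1.58 CPM in CD229pos CD11cpos cells.

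MEF2A is a MADS-box transcription factor active in microglia. In Mef2aKO against Cre cells at 5 weeks the members that passed were all lower. At baseline the 3 Cre libraries are those that helped choose the genes, so the values are a description with no p: the fit called 2 of 8 lower, beside 2.08% of genes, Coro2a at 39.3, 44.9 and 50.3 CPM against 82.0, 90.7 and 76.3 CPM (-0.89 ± 0.09) and St8sia6 at 6.88, 11 and 11.9 CPM against 16.7, 16.8 and 16.8 CPM (-0.76 ± 0.17). Mean Coro2a was 44.8 CPM here and 43.9 CPM in the baseline libraries labelled Egr2KO. The 3 Cre baseline libraries serve both comparisons, so the values are only set side by side. The call of St8sia6 was lost without Mef2aKO replicate 1, and without replicate 3 the count was 4 of 8. Tmem51, Synpo and Trpc4 had too few reads for a fold at baseline. Border macrophage markers were lower in Mef2aKO baseline cells as well, 8 of 8 of them, but their summed levels overlapped. The sums ran from 28.1 to 39.8 CPM against 28.5 to 163 CPM in Cre, and their part was not tested.

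After 5 weeks, Coro2a and St8sia6 were lower in Mef2aKO cells in all 4 gates. Coro2a differed by -0.76 ± 0.10 in Clec7aneg, -0.84 ± 0.09 in Clec7apos, -1.11 ± 0.09 in Clec7apos CD229pos and -0.72 ± 0.09 in Clec7apos CD229pos CD11cpos cells, with the adjusted p 2.02e-06 at most, and no libraries overlapped. St8sia6 differed by -0.65 ± 0.18 (adjusted p = 0.0252), -0.79 ± 0.13, -0.83 ± 0.14 and -0.65 ± 0.12 in the same order. In Clec7aneg cells, where Mef2aKO had 2 libraries, 5 of 8 were lower against 3.91% of genes: Tnfsf8 at 5.16 and 5.75 CPM against 14.1, 13 and 17.0 CPM (-1.43 ± 0.29, adjusted p = 0.00135), Igfbp5 at 0.860 and 2.46 CPM against 5.79, 6.29 and 5.46 CPM (-1.79 ± 0.38, adjusted p = 0.00224), and Tmem51 at 1.23 and 0.939 CPM against 2.14, 3.25 and 3.95 CPM (-1.52 ± 0.41, adjusted p = 0.0198). With Mef2aKO replicate 1 left out only Coro2a passed (adjusted p of the other 4 from 0.0531 to 0.484). Tmem51 also missed the threshold without Mef2aKO replicate 2 (adjusted p = 0.172) or Cre replicate 3 (adjusted p = 0.112), and St8sia6 without Cre replicate 1 (adjusted p = 0.110) or 3 (adjusted p = 0.0557).

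In Clec7apos cells Tmem51, Igfbp5 and Tnfsf8 overlapped between genotypes (adjusted p = 0.920, 0.872 and 0.993), and Synpo and Trpc4 were the members lower beside Coro2a and St8sia6, so 4 of 8 were lower against 2.23% of genes. Trpc4 was at 1.42, 2.82 and 0.955 CPM in Mef2aKO and 6.52, 4.21 and 5.22 CPM in Cre (-1.66 ± 0.36, adjusted p = 0.00420), and Synpo at 0.284, 0.134 and 0.239 CPM against 1.51, 1.59 and 1.04 CPM (-2.58 ± 0.66, adjusted p = 0.0149). Both Synpo and Trpc4 missed the threshold without Cre replicate 1 (adjusted p = 0.0601 and 0.0509), and Synpo also without Cre replicate 2 or any 1 of the Mef2aKO replicates (adjusted p = 0.0521 to 0.0742). In Clec7apos CD229pos cells 5 of 8 were lower against 2.81% of genes. Trpc4 was at 0.972, 1.11 and 0.775 CPM against 6.71, 3.94 and 7.23 CPM (-2.64 ± 0.39, adjusted p = 1.89e-05), Notch4 at 77.4, 93.7 and 99.1 CPM against 165, 159 and 163 CPM (-0.85 ± 0.13, adjusted p = 3.84e-05), and Synpo at 0.292, 0.369 and 0 CPM against 1.34, 1.04 and 1.68 CPM (-2.52 ± 0.65, adjusted p = 0.0115). Synpo missed the threshold without Cre replicate 3 (adjusted p = 0.0621) or Mef2aKO replicate 3 (adjusted p = 0.0762).

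In Clec7apos CD229pos CD11cpos cells 4 of 8 were lower against 2.35% of genes. Trpc4 was at 6.71, 5.21 and 8.89 CPM in Mef2aKO and at 23.2, 19.7 and 23.3 CPM in Cre (-1.64 ± 0.26, adjusted p = 6.24e-05), and Synpo at 0.551, 0.400 and 0.611 CPM against 2.76, 2.97 and 2.67 CPM (-2.35 ± 0.48, adjusted p = 0.00147). Both sets of libraries were far apart. St8sia6 stood at 83.8, 85.3 and 91.4 CPM against 136, 129.7 and 144 CPM (adjusted p = 3.75e-04). Notch4 overlapped at 59.9 ± 8.75 and 61.1 ± 6.61 CPM (SD, n = 3; adjusted p = 0.970), after the lower level in the CD229pos gate; whether the 2 gates differ was not tested. Egr2 was itself lower in Mef2aKO cells in all 4 gates (-1.2 ± 0.15, -0.67 ± 0.10, -0.71 ± 0.10 and -0.67 ± 0.10, the adjusted p 4.61e-05 at most). Synpo was lower in Mef2aKO and higher in Egr2KO cells after cuprizone, both against Cre. Summed border macrophage markers were also lower in Mef2aKO cells, at 43.8 to 60.2 against 106 to 191 CPM in Clec7apos and 59.6 to 71.1 against 126 to 152 CPM in Clec7apos CD229pos cells, while they overlapped in CD11cpos cells (86.4 to 117 against 116 to 127 CPM).

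Baseline Mef2aKO cells sorted by CD229 showed no member past the threshold of the 4 tested (edgeR), beside 0.15% of genes. Tnfsf8 was at 8.37 and 12.3 CPM in CD229pos against 4.75, 2.62 and 3.19 CPM in CD229neg cells (1.58 ± 0.45, adjusted p = 0.290) and St8sia6 at 12.2 and 17.7 CPM against 9.15, 8.20 and 8.74 CPM (0.81 ± 0.22, adjusted p = 0.246). Both pairs of groups stood apart, but only with no filter on low counts did 2 members pass. Coro2a was at 46.0 ± 13.9 and 45.6 ± 9.38 CPM (SD, n = 2 and 3).

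**Figure D2:**
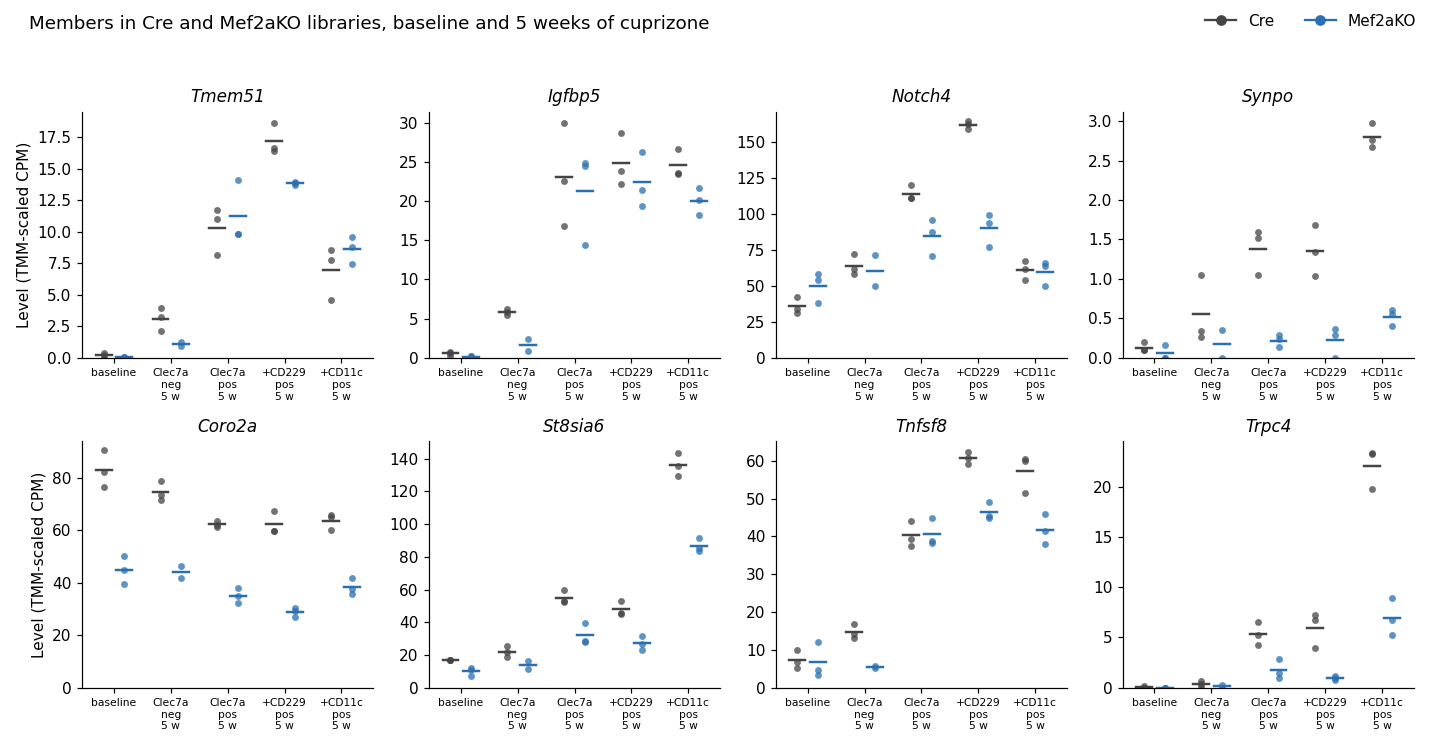
Level of each gene in TMM-scaled CPM (linear axes from 0) in every Cre and Mef2aKO library at baseline and in the 4 gates at 5 weeks of cuprizone, each gate adding Clec7a, CD229 and CD11c in turn; points are libraries and bars are group means. Coro2a and St8sia6 points of Mef2aKO lie below Cre in all 5 groups, Synpo and Trpc4 lie below in the 3 Clec7apos gates, and Cre Notch4 peaks in the CD229pos gate at 159 to 165 CPM.

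TREM2 is a lipid-sensing receptor that microglia need to respond to myelin debris. At baseline 1 of 7 genes was lower in Trem2KO cells against 0.538% of genes: St8sia6, at 7.10, 8.02 and 5.95 CPM against 13.8, 16.8 and 10.5 CPM in WT (-0.96 ± 0.18, adjusted p = 0.00690). It missed the threshold without WT replicate 2 (adjusted p = 0.0988) and with the Trem2KO table alone (adjusted p = 0.0618). Coro2a and Notch4 overlapped between genotypes, and Igfbp5 had no read in the 3 Trem2KO libraries.

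After 4 weeks Tmem51, St8sia6, Igfbp5, Notch4 and Tnfsf8, which rose in WT, were lower in Trem2KO than in WT cells, and Coro2a was higher. In CD229neg cells 6 of 7 passed against 20.3% of genes, and in CD229pos cells all 7 against 52.5%. Notch4 was at 35.7, 30.9, 34.8 and 28.5 CPM in Trem2KO and 62.6, 61.0 and 65.3 CPM in WT CD229neg cells (-0.95 ± 0.14, adjusted p = 1.97e-05). In CD229pos cells it was at 15.3, 14.5, 11.9 and 9.30 CPM against 167, 152 and 129.9 CPM (-3.52 ± 0.15, adjusted p = 2.24e-16). St8sia6 was at 5.71, 3.16, 4.10 and 3.82 CPM against 18.8, 16.9 and 25.3 CPM in CD229neg (-2.26 ± 0.18, adjusted p = 2.61e-10), and at 2.00, 1.29, 1.84 and 1.18 CPM against 29, 34.4 and 30.1 CPM in CD229pos cells (-4.25 ± 0.21, adjusted p = 1.80e-15). Every Trem2KO library lay below every WT library for both genes. Tnfsf8 was lower by about the same amount in both gates (-1.90 ± 0.16 and -1.87 ± 0.13), at 4.92 ± 0.272 and 15.8 ± 1.08 CPM (SD, n = 4).

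Tmem51 had 2, 5, 2 and 0 reads in the Trem2KO CD229neg libraries and 4, 6, 3 and 4 in those of CD229pos, at 0.247 ± 0.225 and 0.484 ± 0.156 CPM, against 3.70 ± 2.63 and 16.7 ± 2.43 CPM in WT (adjusted p = 8.37e-06 and 1.02e-10). Igfbp5 had 3 reads in all over 4 CD229neg and 8 over 4 CD229pos libraries, where WT had 4.19 ± 0.542 and 18.5 ± 0.828 CPM (adjusted p = 4.75e-09 and 7.74e-14). With so few reads the size of these falls depends on the model, and no fold is given. Synpo was lower in CD229pos cells, at 8 reads over 4 libraries against 21 over 3 WT libraries (-1.95 ± 0.68, adjusted p = 0.0140), a call lost without WT replicate 1 (adjusted p = 0.0553) or 3 (adjusted p = 0.0684). Trpc4 had no read in the 4 Trem2KO CD229pos libraries, on the transcript counted in that table. Coro2a went the other way, at 92.8, 94.8, 85.5 and 95.7 CPM against 64.0, 65.3 and 66.1 CPM in CD229neg (0.50 ± 0.07, adjusted p = 8.68e-06), and 107, 110.1, 108 and 127 CPM against 58.1, 60.8 and 58.8 CPM in CD229pos cells (0.93 ± 0.07, adjusted p = 3.42e-11). After cuprizone Coro2a was thus higher in both Trem2KO gates and lower in the 4 Mef2aKO gates, while in Egr2KO cells it lay below its controls without overlap in 2 of 4 comparisons, each set against its own controls.

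For 3 of 7 genes the Trem2KO and WT values of the CD229 step were unlike by a test of the difference, against 14.8% of genes. In Trem2KO cells St8sia6 (-1.37 ± 0.27, adjusted p = 2.20e-04) and Notch4 (-1.32 ± 0.16, adjusted p = 3.21e-07) fell from CD229neg to CD229pos, where both rose in WT, and the steps differed by -1.98 ± 0.31 (adjusted p = 4.54e-05) and -2.57 ± 0.21 (adjusted p = 4.01e-09). Coro2a rose in Trem2KO (0.29 ± 0.06, adjusted p = 8.62e-04) against -0.14 ± 0.08 in WT, a difference of 0.43 ± 0.10 (adjusted p = 0.00433). Tnfsf8 rose in both, by 1.68 ± 0.16 and 1.65 ± 0.14, and the difference was 0.03 ± 0.21 (adjusted p = 0.953). In all, 4 of 7 genes passed in the Trem2KO step against 27.5% of genes. Border macrophage markers were lower in Trem2KO CD229neg cells, 8 of 8 of them (20.3 to 31.9 against 62.4 to 193 CPM summed), and overlapped in CD229pos cells (84.1 to 113 against 82.2 to 229 CPM). Their part was not tested.

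**Figure D3:**
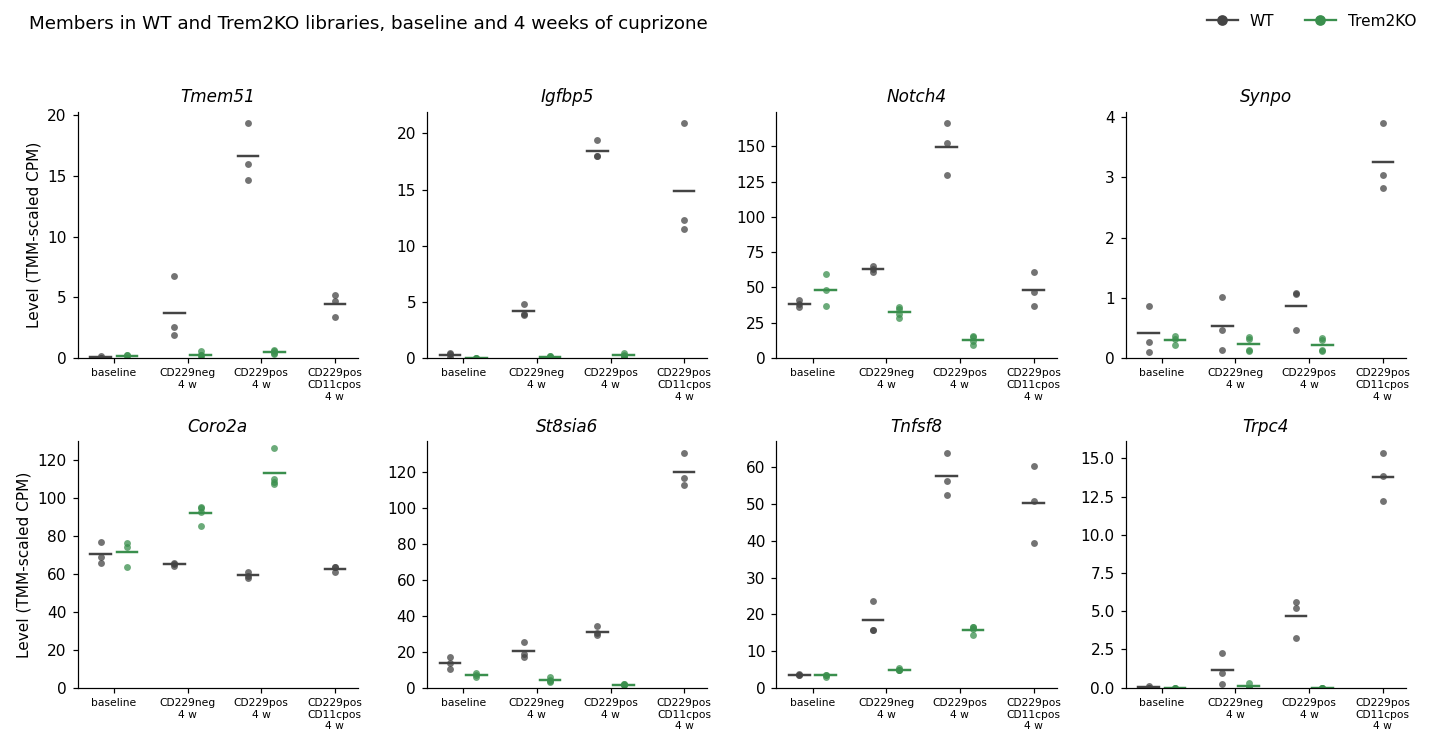
Level of each gene in TMM-scaled CPM (linear axes from 0) in every WT and Trem2KO library at baseline and 4 weeks of cuprizone; the last gate has WT libraries only, and points are libraries and bars group means. Trem2KO points of Notch4 and St8sia6 in CD229pos cells lie at 9.30 to 15.3 and 1.18 to 2.00 CPM, below all WT points, while Coro2a points lie above; Trpc4 comes from 2 tables with different transcripts.

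Seen side by side, St8sia6 kept 1 direction over the 3 knockouts. It was lower in the 5 Egr2KO, the 5 Mef2aKO and the 3 Trem2KO comparisons, by -0.65 at the least and -4.25 at the most. Synpo was higher in the 4 cuprizone comparisons of Egr2KO and lower in the 6 of Mef2aKO and Trem2KO, where the tests passed in 4. After cuprizone Tmem51 and Igfbp5 were higher in Egr2KO, lower in the Clec7aneg gate of Mef2aKO, past no threshold in its 3 Clec7apos gates, and lower in Trem2KO. The Egr2KO values chose the genes, so this pattern is described and not tested.

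**Figure D4:**
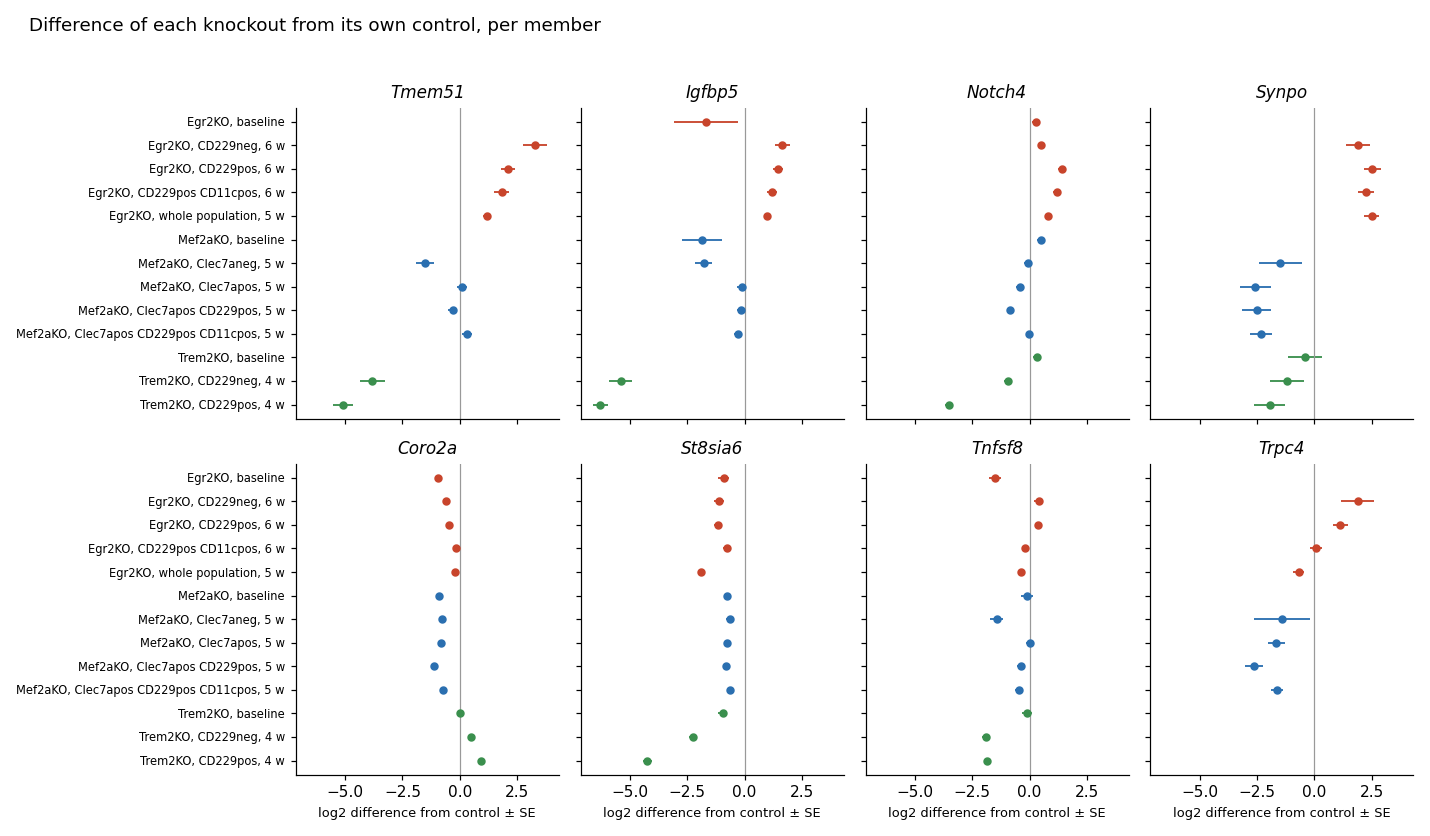
Difference of each knockout from its own control on the log2 scale, with SE bars, for each of the 8 genes; rows are the Egr2KO, Mef2aKO and Trem2KO comparisons, and points where both groups had at most 3 reads a library are left out, as is Trpc4 for Trem2KO. St8sia6 lies left of 0 in all 13 rows, Synpo right of 0 for Egr2KO and left for Mef2aKO, and Trem2KO values of Tmem51 and Igfbp5 rest on 0 to 6 reads a library.

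The genes differed in abundance. Per kilobase of counted transcript, in Cre cells at baseline Coro2a was the most abundant (21.4 CPM per kb), followed by Notch4 (5.46), St8sia6 (5.32) and Tnfsf8 (3.29), and the other 4 were at 0.101 or less. In Clec7apos CD229pos CD11cpos cells at 5 weeks the order was St8sia6 (43.3), Tnfsf8 (25.8), Coro2a (16.4), Notch4 (9.29), Trpc4 (6.39), Igfbp5 (4.20), Tmem51 (3.72) and Synpo (0.559 CPM per kb). Notch4 and St8sia6 at baseline, and Igfbp5 and Tmem51 in the last gate, were closer to each other than the spread of their libraries.

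Over the 10 Cre and Mef2aKO groups at baseline and 5 weeks, the genes whose mean log2 levels ran closest to each member, after centring, were sought among 10191 genes (10192 for Synpo and Trpc4). The root mean square difference to the nearest gene was 0.16 for Coro2a (F11r, a junctional adhesion molecule), 0.22 for Tmem51 (Slc2a6, a sugar transporter) and for Igfbp5 (Ptger4, a prostaglandin E2 receptor), 0.24 for Tnfsf8 (Cacna1a, a calcium channel subunit), 0.27 for St8sia6 (Kif5a, a kinesin) and for Notch4 (Apmap), 0.43 for Synpo (Ifi209) and 0.55 for Trpc4 (Ace, angiotensin-converting enzyme). Egln3, a prolyl hydroxylase of the hypoxia pathway, was among the 3 nearest to both Tmem51 (0.36) and Igfbp5 (0.27). Il1b was also among the 3 nearest to both St8sia6 (0.32) and Synpo (0.49). Within the set the closest pair was Tmem51 and Igfbp5, at 0.43, followed by St8sia6 and Synpo at 0.60. The points share libraries and gates, so these are descriptions.

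The EGR and NAB genes were followed over the same steps. In Cre cells from baseline to Clec7aneg, 5 of 5 tested rose, among them Egr2 (2.83 ± 0.15, adjusted p = 4.39e-16), Egr3 (1.56 ± 0.19) and Nab2 (0.97 ± 0.09). From Clec7apos CD229pos to CD11cpos cells Egr2 rose by 0.57 ± 0.10 (adjusted p = 5.39e-05, edgeR's quasi-likelihood test), the step in which St8sia6 and Trpc4 rose and Notch4 and Tmem51 fell. Mean Egr2 was also higher in Cre Clec7apos (64.8 CPM) than in Clec7aneg cells (23.8 CPM), a step in which Notch4 and Tmem51 rose. Both rose as well in the CD229 step at 6 weeks, where Egr2 rose by 1.48 ± 0.16 as the mean of Cre and Egr2KO. In Trem2KO CD229pos cells Egr2 was at 5.26, 3.22, 1.6 and 1.62 CPM against 71.0, 70.6 and 73.0 CPM in WT (-4.49 ± 0.33, adjusted p = 9.71e-12), with Egr3 (-4.43 ± 0.37), Nab2 (-1.68 ± 0.09) and Nab1 (-0.68 ± 0.09) lower too. In Egr2KO whole populations at 5 weeks Egr3 was instead higher, at 38.8 against 16.8 CPM (1.21 ± 0.13, adjusted p = 2.28e-04). Igfbp5, Tmem51 and Notch4 were higher in Egr2KO and lower in Trem2KO cells after cuprizone, each against its own controls. In Trem2KO CD229pos cells 52.5% of all genes passed, and the part of Egr2 in the members' values was not tested.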

How the data were processed

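Polyadenylated RNA of sorted mouse microglia was sequenced in 81 libraries. The deposited tables hold raw read counts for 25124 genes, 1 RefSeq transcript per gene with its mm10 position and length, per the file headers. The tools fastp 0.20.0, STAR 2.7.0f, HOMER 4.11 and DESeq2 and the builds mm10 and GRCm38 are named in the submitters' processing notes, which give no role or order for them. The authors' deposited TPM values were not used. The counts were analysed in 5 experiments with edgeR 4.0.16 (R 4.3.3, limma 3.58.1): filterByExpr by group, TMM scaling, 1 mean per group, the quasi-likelihood test and Benjamini-Hochberg adjustment over all genes tested, with a threshold of 0.05. The script was tested on simulated data. Residual degrees of freedom were 15 (6 weeks), 2 (5 weeks, whole population), 19 (Mef2aKO), 7 (Mef2aKO baseline gates) and 16 (Trem2KO), and the smallest and largest library totals outside the Egr2KO experiments were 5567742 and 13972985 counts. The 2 tables of the 4-week experiment were joined on 24910 genes whose counts in their shared WT baseline libraries were identical; 214 genes, Trpc4 among them, were not joined.

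The 8 genes and all gene lists were chosen with earlier results of these data known. The 5 Egr2KO against Cre contrasts chose the genes, so they give no test for them. Of 20 other comparisons, 4 use libraries of those contrasts (both gate steps at 6 weeks, and the diet step and Mef2aKO comparison that rest on the Cre baseline libraries). These are given without p for the 8 genes, although they were designed as tests. The rest are tested, except that rises of Tmem51, Synpo and Trpc4 in diet and gate steps are given without p. The text names the 8 genes and Egr2, the 3 genes most like each member by group means over the 10 groups of the Mef2aKO experiment, genes at either end of the Egr2KO rankings, and up to 4 genes per list and comparison past the threshold; Fosb, Flt1 and the cell type markers stand beside results they move with. No fold is given where both groups had at most 3 counts per library. Levels are TMM-scaled CPM, and fold changes are log2 ± SE with a prior count as edgeR sets it. Replicates were compared before averaging: the chi-square per degree of freedom of 89 replicate pairs ran from 1.56 to 16.1, so no pair looked like repeat deposits of 1 library. Labels do not say whether replicate numbers share mice, so p-values measure the spread between libraries, which may be technical in part. The correlation between deviations of same-numbered libraries exceeded 0.1 in every pair only for the CD229 step at 6 weeks (0.12 to 0.29 over 6 pairs). A pairing of gates within genotype and number fits there, and with that block the step was 2.65 for Igfbp5 and 2.83 for Tmem51. Below that cutoff, every pair was still positive in some other steps, such as CD11c at 6 weeks (0.063 to 0.18). The same held for the CD229 step in WT (0.068 to 0.20) and Trem2KO cells (0.075 to 0.16). In several other comparisons some pairs were negative. Alternatives were DESeq2 1.42.0, RLE scaling, no filter on low counts, the replicate number as a block, the PE150 tag as a covariate or as a filter, and leaving out each library; the 4-week tables taken alone and the block of genotype and number together were chosen after seeing the data. Protein sequences, and a promoter of Synpo, were not used here.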

Additional observations from a re-analysis of the deposited data

Results flagged for a closer look

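In 15 combinations of 1 gene and 1 Trem2KO gate of 4 libraries, tested for a value far from the others, 3 were found. The cases of Igfbp5 and Trpc4 rest on 0 to 3 reads a library. The test's usual rate of about 1 in 20 by chance does not hold for such values. Coro2a in Trem2KO CD229pos cells was at 127 CPM in replicate 4, while the other 3 libraries lay at 107 to 110.1 CPM. In Trem2KO CD229neg cells Igfbp5 was at 0 CPM in replicate 1 and at 0.109 to 0.123 CPM in the others, 1 read each. Trpc4 in the same gate was at 0.311 CPM in replicate 1, which is 3 reads, and at 0 in the others.

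At 4 weeks 3 genes had unlike CD229 steps in Trem2KO and WT cells, by the interaction term of the edgeR fit. The Trem2KO step minus the WT step was 0.43 for Coro2a, -1.98 for St8sia6 and -2.57 for Notch4 on the log2 scale. The first goes with a rise in Trem2KO cells and the other two with a fall there and a rise in WT.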

How the results depend on the processing

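The 8 genes' own values changed little with the method. In the Egr2KO contrasts a value was held if it kept direction and moved by less than the SD between libraries. Elsewhere only values called in the main fit were followed, and were held if they kept direction and call. With RLE scaling and with the replicate block all 123 values held, with DESeq2 121 did, and with no filter 122 did. The exceptions were Synpo in the Clec7a step, with DESeq2 and with no filter, and Tnfsf8 in the CD229 step of Cre cells at 5 weeks (adjusted p = 0.149 with DESeq2). With the PE150 tag as a covariate 35 of 35 values held, and in PE150 libraries alone 34 of 35, Notch4 in CD229neg cells moving to 0.26. Over all genes, the counts past the threshold in the Egr2KO contrasts moved more. With no filter on low counts they were 166 at baseline (main count 24), 167 in CD229neg (25), 834 in CD229pos (325) and 162 in CD229pos CD11cpos cells (33), and 339 at 5 weeks (114). DESeq2 gave 40 at baseline and 55 in CD229pos CD11cpos cells. The PE150 covariate gave 39, 564 and 63 in the 3 gates. For other comparisons, the Mef2aKO baseline CD229 split had 19 genes, and 184 with no filter (2 of them members), 56 with DESeq2 and 12 with the replicate block; Trem2KO baseline had 73, and 288, 121 with DESeq2 and 42 with its table alone, where St8sia6 missed the threshold and 0 members passed. The CD11c step at 6 weeks had 3808 and, in PE150 libraries alone, 2529. The cause of these moves was not tested.

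Pairing by replicate number passed the cutoff only in the 1 comparison named above, which cannot exclude shared mice in others. The replicate block gave 51 genes at baseline, 570 in CD229pos, 66 in CD229pos CD11cpos cells and 279 at 5 weeks, and no call of the 8 genes was lost with it.

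Leaving out 1 library at a time gave 2 to 147 genes at baseline, 2 to 17 in CD229neg, 72 to 482 in CD229pos, 3 to 13 in CD229pos CD11cpos cells and 107 to 310 at 5 weeks. Members past the threshold ran from 0 to 2 in the CD229 step of Cre cells at 5 weeks, 1 to 4 in Mef2aKO baseline, 1 to 5 in Clec7aneg, 2 to 4 in Clec7apos cells, and 0 to 1 in Trem2KO baseline cells. The difference of Trpc4 in CD229pos CD11cpos cells became -0.025 without Egr2KO replicate 3, and that of Coro2a at 5 weeks 0.0039 without Egr2KO replicate 2 and -0.40 without replicate 1. Where 1 library remained in an arm, it was assumed to vary like the other groups. Synpo, Trpc4, Tmem51 and Igfbp5 had under 20 reads a group in the baseline groups not split by CD229. A difference there was hard to measure at this depth, and none is excluded.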
